A study of Mus musculus with 12 samples.

Results

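Kap, Napsa, Dnase1 and Pzp are 4 of the 22007 genes in a table of FPKM values (mapped fragments for each kilobase of transcript, as a share of those of the mouse) from whole kidneys of 12 mice. They encode proteins that enter the secretory pathway, and they were chosen by their measured values in these mice, either a high FPKM in control kidneys or one of the steepest falls in chronic kidney disease (CKD). The mice were C57BL/6, 4 in each of 3 groups, and each mouse gave 1 library. CKD was induced with a 0.2% adenine diet fed for 8 weeks, from 8 to 16 weeks of age, and control mice received the same diet without adenine. CKD mice on iron therapy (CKD+Fe) also received iron dextran i.p. every week at 0.5 g/kg, while control mice and untreated CKD mice received weekly i.p. PBS. The sex of the mice is not given in the sources used here, and the Y-linked genes Ddx3y, Eif2s3y, Kdm5d and Uty were above 2 FPKM in all 12 mice. Mice are named below by the numbers in their labels.

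Kap is the kidney androgen-regulated protein, an abundant secreted product of mouse proximal tubules whose transcription depends on androgens. Napsa encodes napsin A, an aspartic protease of the proximal tubule and of type II pneumocytes that acts in lysosomes and related compartments. Dnase1 encodes a secreted endonuclease that digests extracellular DNA and is abundant in kidney and in digestive glands. Pzp encodes the pregnancy zone protein, a large protease inhibitor of the alpha-2-macroglobulin family that is best known as a plasma protein made by the liver. The proximal tubule is the nephron segment that reabsorbs most of the filtrate.

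By position in the mouse genome GRCm38, Kap (ENSMUSG00000032758) lies on the minus strand of chromosome 6 at chr6:133849851-133853762, and Pzp (ENSMUSG00000030359) lies on the minus strand of the same chromosome, 5323 kb away, at chr6:128483567-128526720. Napsa (ENSMUSG00000002204) lies on the plus strand at chr7:44572380-44586862. Dnase1 (ENSMUSG00000005980) lies on the plus strand at chr16:4036942-4040024. In the GENCODE M21 annotation no other gene overlaps Kap. Napsa, Pzp and Dnase1 each overlap an antisense gene, and the end of Dnase1 also overlaps the end of Trap1, which is transcribed from the opposite strand. The libraries were stranded, but whether the FPKM estimate used strand is not given in the sources used here, so reads from these overlaps could not be assigned with certainty.

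The bases just upstream of the start of each gene are shown because these genes were all lower in CKD kidneys, and because Kap is the textbook androgen-responsive gene of the mouse kidney. The windows hold the 250 bases before the RefSeq start site (GRCm38.p6), at chr6:133853668-133853917 on the minus strand for Kap, chr16:4036786-4037035 on the plus strand for Dnase1 and chr6:128526721-128526970 on the minus strand for Pzp. The starts that RefSeq gives for Kap and Dnase1 lie inside the deposited gene intervals, and for Dnase1 the nearer of 2 listed starts was used. Napsa has no entry in the table of promoters. Each sequence is written 5′ to 3′ in the direction of the gene, and the capitals mark matches to TATAAA or to AGAACA on either strand.
Kap: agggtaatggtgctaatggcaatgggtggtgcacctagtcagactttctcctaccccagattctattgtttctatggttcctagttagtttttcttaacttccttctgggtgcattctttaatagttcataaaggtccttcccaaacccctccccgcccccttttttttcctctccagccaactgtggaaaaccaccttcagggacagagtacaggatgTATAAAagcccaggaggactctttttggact
Dnase1: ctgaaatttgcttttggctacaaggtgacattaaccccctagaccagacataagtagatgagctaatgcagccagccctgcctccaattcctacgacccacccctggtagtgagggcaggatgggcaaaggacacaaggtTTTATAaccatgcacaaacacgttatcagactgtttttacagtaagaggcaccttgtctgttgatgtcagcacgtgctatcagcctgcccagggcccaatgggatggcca
Pzp: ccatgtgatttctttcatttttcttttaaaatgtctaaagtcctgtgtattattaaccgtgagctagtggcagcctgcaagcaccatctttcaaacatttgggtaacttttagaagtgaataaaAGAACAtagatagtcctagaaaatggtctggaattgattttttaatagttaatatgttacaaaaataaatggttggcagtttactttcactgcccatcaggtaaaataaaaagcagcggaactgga

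The Kap window held the TATA box letters TATAAA 31 bases before the start on the strand of the gene. The steroid receptor element AGAACA was absent from the Kap window, and the Pzp window held it once, 126 bases before the start. The Dnase1 window held TATAAA on the opposite strand, 110 bases before the start. None of the 3 windows held the nuclear receptor element AGGTCA. Among 32851 mouse promoters of the same length, 12.37% held TATAAA, 16.08% held AGAACA and 14.02% held AGGTCA on either strand. A match somewhere in a window is thus not rare. The share of promoters with a match at the same place and strand was not computed.

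Kap had the highest mean control FPKM of the 22007 genes in the table, which is labelled as protein-coding, so other transcripts are not ranked here. It stood at 68943, 68833, 89890 and 64404 FPKM in control mice 012811, 012822, 042301 and 042310. In CKD mice 021320, 022301, 110310 and 120102 it stood at 4637, 1026, 7554 and 1124 FPKM. Every CKD mouse lay below every control mouse, and the CKD mice fell into a higher pair and a lower pair, with the highest 7.36-fold above the lowest. The mean was 73018 ± 11445 FPKM in control mice and 3585 ± 3134 FPKM in CKD mice (SD, n = 4 each), so that CKD kidneys kept 4.91% of the control level. The log2 difference of FPKM + 1 was −4.84 (SE 0.62). Since Kap was chosen on these values, the difference is a description and no test is read from it.

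Kap alone held 11.2% of the FPKM total of this table in a control kidney on average, and 0.643% of that in a CKD kidney. Gpx3, second in the table by mean control FPKM, encodes the plasma glutathione peroxidase and stood at 43340 FPKM. FPKM are scaled within each mouse, so a transcript this large bears on the values of all other genes. The FPKM total without the 4 genes ran from 540559 to 614666 in control mice, from 501525 to 594768 in CKD mice and from 532754 to 561099 in CKD+Fe mice. When each mouse was scaled to the same total without these 4 genes, or by median-of-ratios or quantile normalization, the log2 difference of Kap in CKD ran from −5.46 to −3.75.

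**Figure D1:**
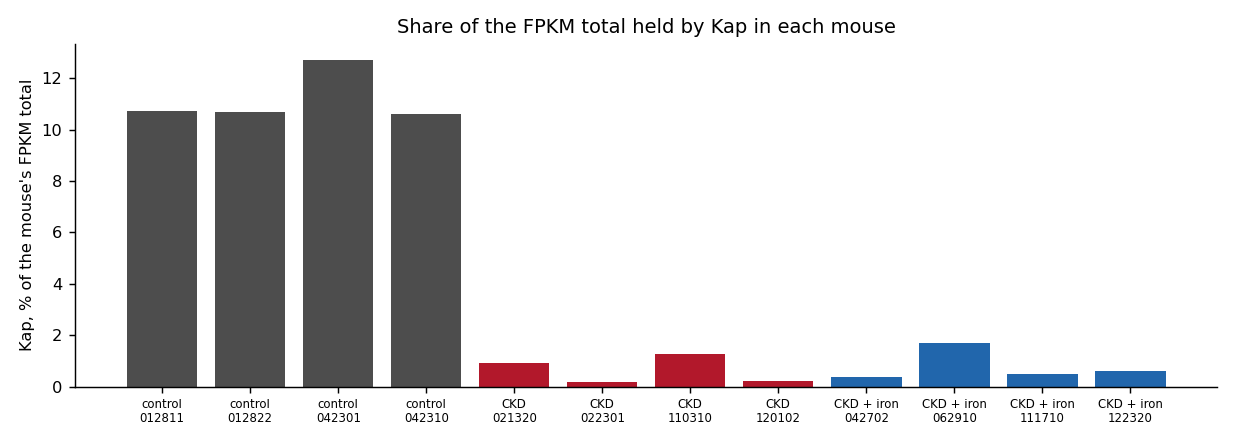
Kap as a percentage of the FPKM total, 1 bar for each of the 12 mice (grey control, red CKD, blue CKD+Fe). The 4 control bars average 11.2%, and the CKD and CKD+Fe bars average 0.643% and 0.792%.

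Napsa was the tenth gene by control FPKM, between Atp5b and Cyp4b1. Its control values were 2938, 2484, 2701 and 2122 FPKM, in the same order of mice as above, and its CKD values were 905, 627, 1204 and 778 FPKM. Again no CKD mouse reached the range of the control mice. CKD kidneys kept 34.3% of the control level, 879 ± 245 against 2561 ± 347 FPKM (SD, n = 4 each), with a log2 difference of −1.57 (SE 0.22). Napsa was chosen for its control level rather than for its fall, which ranked 315 of 13141 genes tested, between Gatb and Trim63.

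Dnase1 was the 85th gene by control FPKM and had the third lowest log2 difference of all genes tested. Control mice had 848, 896, 538 and 824 FPKM, and CKD mice had 22.2, 11.6, 29.2 and 10.98 FPKM. Mouse 042301 was the lowest control for Dnase1 although it was the highest for Kap. The CKD mean was 18.5 ± 8.82 FPKM against 777 ± 162 FPKM in control mice (SD, n = 4 each), or 2.38% of control, and the log2 difference was −5.40 (SE 0.36). Directly before Dnase1 in that order stood Slc22a7, an organic anion transporter, at −5.90.

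Pzp was a moderately expressed gene in control kidneys, 2434th by FPKM, and was near the limit of measurement in CKD. Control mice had 23.2, 30.4, 48.2 and 41.2 FPKM. CKD mice had 0.265, 0.134, 0.588 and 0.0373 FPKM. The groups were far apart, and all 4 CKD mice were under the 1 FPKM used as the filter, so Pzp entered the fit through the control mice. CKD kidneys had 0.256 ± 0.240 FPKM against 35.8 ± 11.1 FPKM (SD, n = 4 each), which is 0.716% of control. The log2 difference was −4.84 (SE 0.27), and with a pseudocount of 0.1 in place of 1 it was −6.85, because adding 1 understates the change of a gene this low. Cyp4a12a followed Pzp in the order of falls at −4.81.

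In all 4 genes every CKD mouse lay below every control mouse, as in 10.4% of the genes tested. That count follows from how the genes were chosen. The median log2 difference over all 13141 genes was 0.50 in CKD compared with control, so the 4 differences relative to the median gene are larger than the values given. In bulk kidney tissue, fewer cells of a type and less RNA per cell cannot be told apart.

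**Figure D2:**
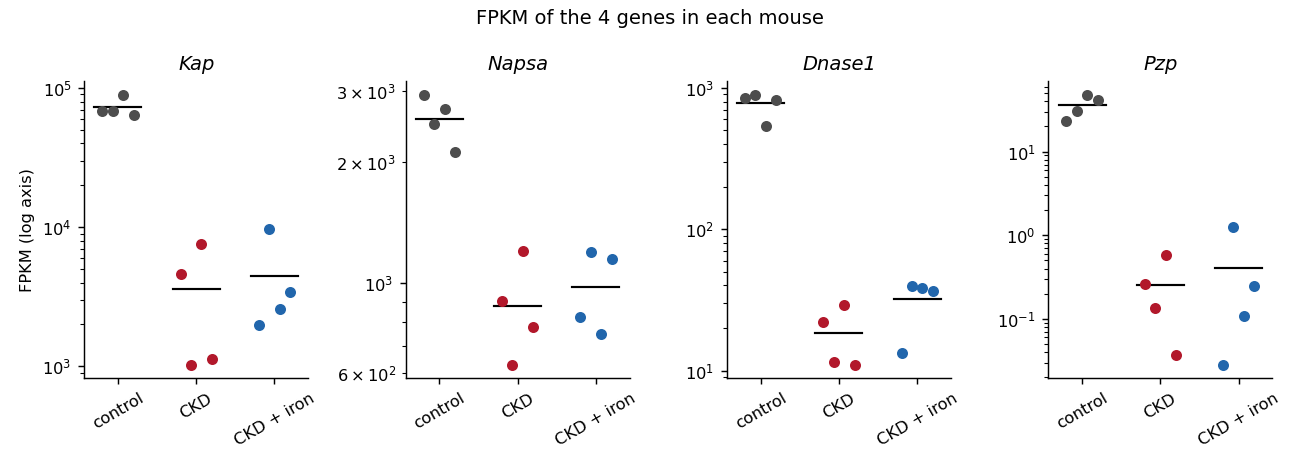
FPKM of Kap, Napsa, Dnase1 and Pzp on log axes, 1 point per mouse in the control, CKD and CKD+Fe groups, with a line at the group mean. All CKD and CKD+Fe points lie below all control points in each panel, and the CKD and CKD+Fe points overlap.

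The comparison of CKD+Fe with CKD mice asks whether weekly iron dextran altered the expression of these genes in the diseased kidney. Untreated CKD mice entered the choice of the 4 genes, and CKD+Fe mice did not. A choice of genes for low values in CKD mice favours positive differences of CKD+Fe from CKD, apart from any effect of iron. None of the 4 passed the threshold of an adjusted p of 0.05 by limma, or of an unadjusted p of 0.05, where 0.00761% of the genes tested passed the adjusted threshold. That was 1 gene, Fabp1, a fatty acid-binding protein, named here after its values were seen. At an unadjusted p under 0.05 there were 430 higher and 360 lower genes.

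In CKD+Fe mice 042702, 062910, 111710 and 122320 Kap stood at 1991, 9740, 2598 and 3420 FPKM. Mouse 062910 lay above the CKD range and the other three lay inside it. The mean of 4437 ± 3584 FPKM (SD, n = 4) was 6.08% of the control level. The log2 difference from CKD was 0.52 (95% interval −0.81 to 1.86, adjusted p = 0.982, exact permutation p = 0.571).

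Napsa had 822, 1194, 748 and 1146 FPKM in the same CKD+Fe mice. All 4 values lay inside the range of the CKD mice. The mean was 977 ± 225 FPKM (SD, n = 4), or 38.2% of control. The log2 difference from CKD was 0.16 (95% interval −0.32 to 0.65, adjusted p = 0.983, exact permutation p = 0.571).

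Dnase1 had 13.2, 39.8, 38.4 and 36.4 FPKM in the CKD+Fe mice. Mice 062910, 111710 and 122320 lay above every CKD mouse, and mouse 042702 lay inside the CKD range. The mean of 32.0 ± 12.6 FPKM (SD, n = 4) was 4.12% of the control level, so that these kidneys remained 24.3-fold below control. The log2 difference from CKD was 0.76 (SE 0.36, 95% interval −0.01 to 1.53, unadjusted p = 0.0539, adjusted p = 0.835, exact permutation p = 0.171). One mouse in each group stood apart from the rest of its group over all genes, namely control mouse 042301, CKD mouse 110310 and CKD+Fe mouse 042702, with 611, 914 and 454 genes at least 2-fold from the other mice against 66 to 219 in the remaining mice. For Dnase1 the CKD mouse among them was the highest of its group and the CKD+Fe mouse the lowest, so leaving them out can only widen the difference. Without these 3 mice the Dnase1 difference was 1.37 (adjusted p = 0.0319), and with array weights, which let such mice count for less, it was 1.17 (adjusted p = 0.043). Without the same 3 mice the differences of Kap, Napsa and Pzp were also larger, at 1.34, 0.40 and 0.36, and did not pass the threshold (adjusted p = 0.239, 0.329 and 0.486). Without only CKD+Fe mouse 042702 the Dnase1 difference was 1.12 (adjusted p = 0.18). Among the 22 proximal tubule markers, 4 were called higher in CKD+Fe mice without these 3 mice and 0 with all mice. Over all 13141 genes, 50 were called higher and 33 lower without the 3 mice, and 89 and 66 with array weights. Leaving out the 3 mice was added after seeing the data, and array weights lean the same way by giving these mice less weight. The limma p-values under 0.05 in these settings are therefore not read as support for an effect of iron on Dnase1. Measured from the mean log2 level of the 22 markers in each mouse, with all mice, the Dnase1 difference from CKD was 0.25 (exact permutation p = 0.43). On that measure Kap was at 0.02, Napsa at −0.34 and Pzp at −0.40. Whether the level of the tubule markers accounts for the Dnase1 difference was not tested.

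Pzp had 0.0283, 1.26, 0.108 and 0.246 FPKM in the CKD+Fe mice. Mouse 062910 was above the CKD range and mouse 042702 below it. The mean of 0.410 ± 0.572 FPKM (SD, n = 4) was 1.15% of control. The log2 difference from CKD was 0.11 (95% interval −0.46 to 0.68, adjusted p = 0.992, exact permutation p = 0.83), and without mouse 062910 it was −0.14. Apart from mouse 062910, all values of both groups were under the 1 FPKM used as the filter. Adding 1 to values this low leaves little room for a difference, so no conclusion about iron is drawn for Pzp.

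Compared with control, the log2 differences of CKD+Fe mice were −4.32 for Kap, −1.41 for Napsa, −4.65 for Dnase1 and −4.73 for Pzp, beside −4.84, −1.57, −5.40 and −4.84 for CKD mice. Both sets of differences use the same control mice, which entered the choice of the genes, so they too are given as a description.

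The order of mice within a group was largely shared by the 4 genes. In CKD, mouse 110310 was the highest and mouse 021320 the second highest for each of them, while the lowest was 022301 for Kap and Napsa and 120102 for Dnase1 and Pzp. In CKD+Fe, mouse 062910 was the highest for each, and mouse 042702 was the lowest for Kap, Dnase1 and Pzp and mouse 111710 for Napsa. The mean of the proximal tubule markers had a similar order, so the order is not particular to the 4 genes. For that mean 021320 was the highest CKD mouse, before 110310, and 022301 the lowest, and in CKD+Fe 062910 was the highest and 042702 the lowest. In control kidneys the 4 genes did not share an order, since mouse 042301 had the highest Kap and Pzp and the lowest Dnase1. Among control mice that library also had the highest Aqp2, the vasopressin-regulated water channel of the collecting duct, at 964 FPKM, and its part in these values was not tested.

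The spread among diseased mice differed between the genes. Within CKD the highest value was 1.92-fold the lowest for Napsa, 2.66-fold for Dnase1, 7.36-fold for Kap and 15.8-fold for Pzp. Within control mice the same ratio was between 1.38 for Napsa and 2.08 for Pzp.

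Proximal tubule markers were lower in CKD as a group, and 3 of the 4 genes were further below control than these markers, which is a description, since Kap, Dnase1 and Pzp were chosen among the steepest falls. Of 22 markers, 20 passed the threshold on the lower side and 0 on the higher side, beside 13.3% of all genes on the lower side. Slc22a12, the urate transporter, was at 75.5 ± 41.0 FPKM against 807 ± 44.2 FPKM, and Miox, which opens the ring of myo-inositol, was at 252 ± 82.6 against 2194 ± 340 FPKM (SD, n = 4 each). The mean log2 level of the 22 markers was 8.26 ± 0.24 for control mice, 6.25 ± 0.39 for CKD mice and 6.76 ± 0.60 for CKD+Fe mice (SD, n = 4). Measured from that mean in each mouse, the CKD difference was −2.84 for Kap, −3.40 for Dnase1 and −2.83 for Pzp, and 0.43 for Napsa.

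**Figure D3:**
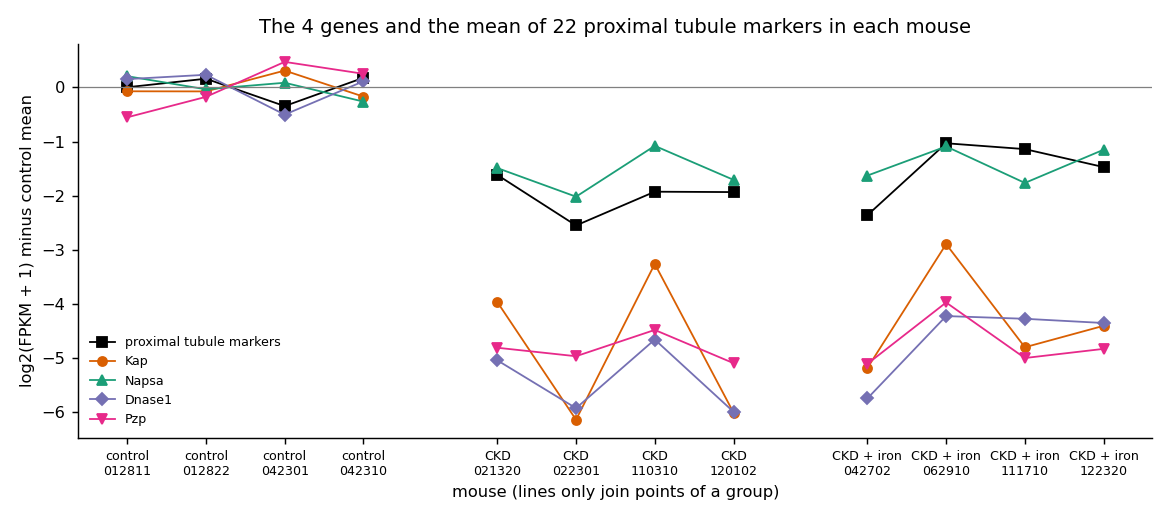
Log2(FPKM + 1) minus its control mean for the 4 genes and for the mean of 22 proximal tubule markers, for each of the 12 mice; lines only join mice of a group. Of the 4 genes Napsa lies closest to the markers in every diseased mouse, while Kap, Dnase1 and Pzp lie below them.

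Markers of tubule injury and of other cell types also differed between the groups, in different directions. All 8 tubule injury markers, 10 of 10 macrophage markers and 7 of 7 fibroblast markers were called higher in CKD, where 54.6% of all genes tested were called higher. Their median log2 differences were 4.60, 3.45 and 2.78. Of 11 distal nephron markers, 5 were called lower and 0 higher, beside 13.3% of all genes on the lower side, with a median of −0.37. Under quantile normalization 5 of the 11 were lower and 2 higher. Of 8 papilla and urothelium markers 0 were called in either direction. The part of these shifts in the values of the 4 genes was not tested.

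Kap belongs to the genes known for higher expression in male kidneys or for a response to androgens. Of 14 such genes tested, Kap included, 13 were called lower in CKD and 1 was called higher, where 13.3% of all genes tested were called lower and 54.6% higher, with a median log2 difference of −3.81 beside 0.50 over all genes. The 13 were the same in number under every rescaling tried and without the 3 mice that stood apart. In CKD+Fe compared with control mice 13 of the 14 were called lower as well, where 11% of all genes tested were, and these counts share the control mice. Kap itself was chosen for its values, and the list was written with earlier results of these data known, so the count is not independent evidence of a direction.

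Slco1a1, an organic anion transporter, was at 113 ± 45.1 FPKM in control and 0.264 ± 0.161 FPKM in CKD mice (SD, n = 4 each), with a log2 difference of −6.43. Cyp4a12a, the fatty acid hydroxylase of male kidneys, was at 49.4 ± 13.6 against 0.766 ± 0.362 FPKM, a log2 difference of −4.81. Both CKD means were under the 1 FPKM used as the filter, and the list was written with earlier results known. The differences of these genes are therefore a description. Slc22a30 (−4.70), Acsm3 (−4.56), Slc7a13 (−4.49) and Cyp7b1 (−4.06) fell by amounts near that of Kap on the log2 scale. These are an organic anion transporter, an acyl-CoA synthetase, an amino acid transporter of the late proximal tubule and a hydroxylase of oxysterols and steroids. Cyp4b1 (−3.55), Nudt19 (−3.00), Cyp2e1 (−2.92), Cyp2j13 (−2.67), Odc1 (−2.27) and Cyp4a12b (−1.16) fell less. Odc1, the first enzyme of polyamine synthesis, still dropped from 487 ± 190 to 95.2 ± 28.4 FPKM (SD, n = 4 each).

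Gusb, the lysosomal β-glucuronidase, was the exception at 0.45 (adjusted p = 0.033), and it was no longer called after median-of-ratios (−0.15) or quantile (0.22) normalization. In CKD+Fe compared with CKD mice, 0 of the 14 genes were called by limma and 1 had an unadjusted p under 0.05. The summed FPKM of the 13 genes other than Kap ran from 4621 to 7654 among control mice, from 475 to 922 among CKD mice and from 540 to 1371 among CKD+Fe mice.

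Genes known for higher expression in female kidneys moved the other way. Of 4 tested, all 4 were called higher in CKD, where 54.6% of genes were, with a median log2 difference of 2.65. Slc7a12, an amino acid transporter, was at 30.1 ± 18.4 FPKM in CKD against 2.12 ± 1.52 FPKM in control mice (SD, n = 4 each). Abcc3, an efflux pump for organic anions, was at 13.9 ± 3.63 against 0.673 ± 0.222 FPKM, and Prlr, the prolactin receptor, at 10.4 ± 5.37 against 1.41 ± 0.659 FPKM. Cyp4a14, a fatty acid hydroxylase induced by PPARα, had a difference of 2.06 (SE 0.69, adjusted p = 0.0176), which lost its call after median-of-ratios (1.48) or quantile (1.76) normalization.

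Srd5a1 and Srd5a2 encode 5α-reductases, which turn testosterone into dihydrotestosterone. Srd5a1 was called higher in CKD, at 35.6 ± 6.81 against 12.3 ± 0.784 FPKM, and Srd5a2 was called lower, at 0.943 ± 0.474 against 3.84 ± 2.54 FPKM (SD, n = 4 each). Of all genes tested 54.6% were called higher and 13.3% lower. The CKD mean of Srd5a2 was under the 1 FPKM used as the filter. Both genes come from a longer list and do not stand for it.

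**Figure D4:**
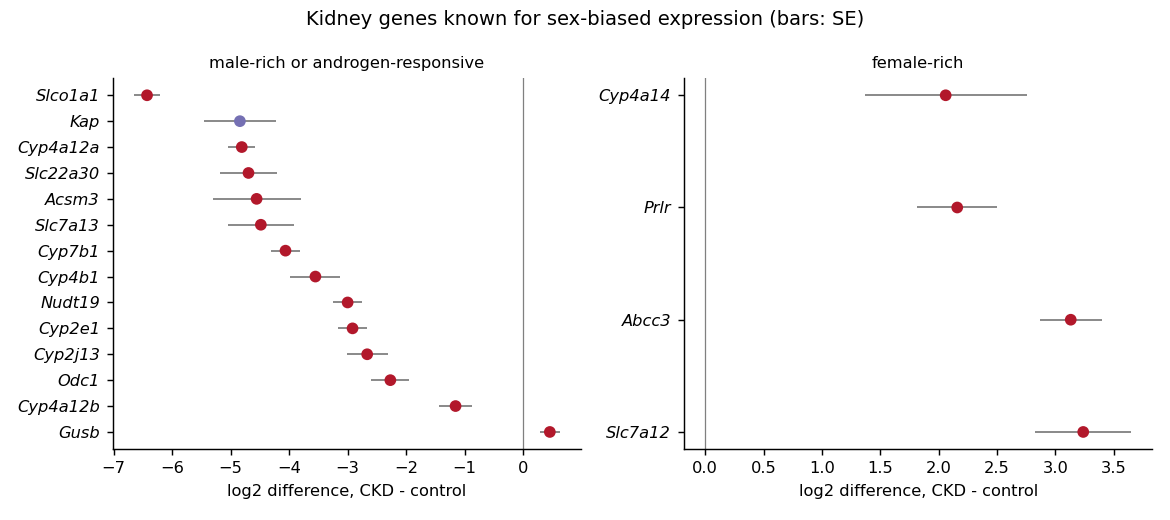
Log2 difference of FPKM + 1 between CKD and control mice for genes known for male-rich or androgen-responsive expression (left) and female-rich expression (right), with SE bars, n = 4 mice per group, red points past an adjusted p of 0.05 and Kap in purple. Of the left genes 13 of 14 lie below 0, and all 4 right genes lie above it. Both lists were written with earlier results of these data known.

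Napsa was read beside other aspartic proteases. Of 7 tested, 4 were called higher in CKD, a share near the 54.6% of all genes tested, and 1, Napsa, was called lower. Napsa was chosen for its values in these mice, so its own call is a description. After median-of-ratios or quantile normalization 3 of the 7 were called higher. Ctsd, cathepsin D of the lysosome, was at 1294 ± 243 FPKM in CKD against 427 ± 12.1 FPKM in control mice (SD, n = 4 each), so that it stood above Napsa in CKD and below it in control kidneys, in FPKM, which are per length. Bace1 (1.04), Bace2 (0.58) and Asprv1 (1.94) were also called higher by log2 difference, of which Bace2 lost its call under median-of-ratios and turned to −0.22 under quantile normalization. Ren1, which encodes renin, had a difference of −0.56 (SE 0.42, adjusted p = 0.254), and it was called lower under median-of-ratios (−1.17) and without the 3 mice that stood apart (−1.04). Pgc and Pga5, the pepsinogens, were under the filter.

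Among lysosomal cysteine and serine proteases, 7 of 13 were called higher and 0 lower by limma, a share on the higher side close to the 54.6% of all genes tested. Ctss, Ctsk and Ctsc had the largest differences of the list, at 4.12, 3.33 and 2.84, and Ctsb, a lysosomal cathepsin of most cell types, was at 363 ± 79.7 against 164 ± 3.49 FPKM (SD, n = 4 each). Cathepsin S is a protease of macrophages and other antigen-presenting cells. Under median-of-ratios normalization 4 of the 13 were higher and 2 lower.

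Among 8 deoxyribonucleases tested, 5 were called higher in CKD, beside 54.6% of all genes tested, and 2, Dnase1 and Endog, were called lower. The call of Dnase1 follows from its choice among the steepest falls. Dnase1l1, a relative of Dnase1 found on cell membranes, was at 26.8 ± 6.33 FPKM in CKD against 8.48 ± 1.92 FPKM in control mice, and Dnase2a, the acid nuclease of lysosomes, at 27.1 ± 5.82 against 11.5 ± 1.84 FPKM (SD, n = 4 each). Trex1, a cytosolic exonuclease, differed by 1.27 on the log2 scale, and Dffb, the caspase-activated nuclease of apoptosis, and Dnase1l2 were the other genes called higher. Endog, a mitochondrial endonuclease, differed by −0.94. Dnase1l3 was at most 1.27 FPKM in any control mouse, and it fell under the filter with Dnase2b and Trex2. Under median-of-ratios and quantile normalization 3 and 2 of the 8 were called higher and 3 were called lower.

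Because Dnase1 is made at high levels by digestive glands, 8 genes of the exocrine pancreas were read as a check on neighbouring tissue. Each was under 1 FPKM in every mouse, and their summed FPKM was at most 0.350 among control mice, 0.153 among CKD mice and 0.582 among CKD+Fe mice.

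Pzp was far more abundant in control kidneys than the other protease inhibitors of its family. A2m, Mug1 and Mug2 were under 1 FPKM in every mouse, as was the complement gene Hc. A2m was at 0.185 ± 0.0419 FPKM in control mice against 35.8 FPKM for Pzp. The complement components C3 and C4b, which share the fold of the family, were called higher in CKD. C3 was at 333 ± 154 against 3.77 ± 0.731 FPKM, a log2 difference of 6.01, and C4b was at 27.2 ± 9.73 against 1.51 ± 0.551 FPKM, a log2 difference of 3.44 (SD, n = 4 each). Cd109, a membrane-anchored member, differed by 0.92 and lost its call under quantile normalization. In all, 3 of 4 tested members were called higher and Pzp lower, beside 54.6% and 13.3% of all genes tested. The call of Pzp follows from its choice among the steepest falls.

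Lrp1, the receptor that clears protease-bound alpha-2-macroglobulins, was called higher in CKD at 57.4 ± 19.7 against 14.3 ± 3.00 FPKM (SD, n = 4 each). Lrpap1, the chaperone of that receptor and of megalin, was called lower at 88.8 ± 29.2 against 284 ± 18.1 FPKM (SD, n = 4 each).

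Since Pzp is a liver protein, hepatocyte genes were read beside it. Mup3, Mup20 and Cps1 were at most 0.215, 0.416 and 0.0434 FPKM in any control mouse. Of the 22 listed genes 18 passed the filter, so these low values do not stand for the list. Alb, the albumin gene, ran from 5.39 to 6.24 FPKM among control mice, from 0.570 to 2.20 among CKD mice and from 0.584 to 8.37 among CKD+Fe mice. Of 18 hepatocyte genes tested, 9 were called higher in CKD and 5 lower, beside 54.6% and 13.3% of all genes. Apoh, β2-glycoprotein I, had the lowest log2 difference of these at −2.34, with 2.06 ± 0.83 against 14.3 ± 2.68 FPKM (SD, n = 4 each), and Fgg, the fibrinogen γ chain, had the highest at 4.40. The summed FPKM of the 22 listed hepatocyte genes was 422 to 982 among control mice, 379 to 764 among CKD mice and 360 to 1189 among CKD+Fe mice.

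**Figure D5:**
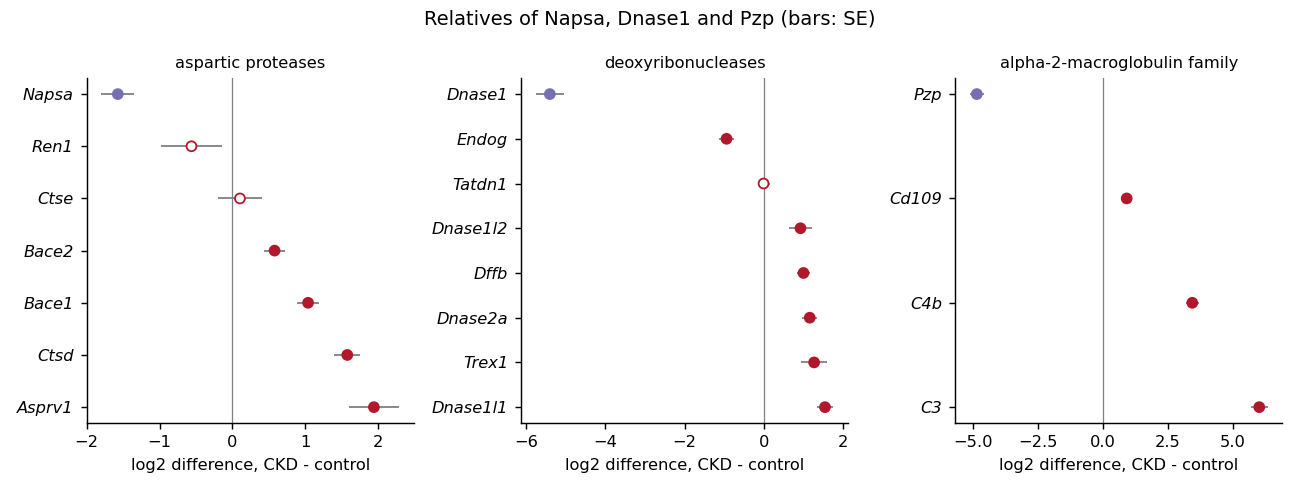
Log2 difference of FPKM + 1 between CKD and control mice for the tested aspartic proteases, deoxyribonucleases and alpha-2-macroglobulin family genes, with SE bars, n = 4 mice per group; filled points passed an adjusted p of 0.05 and purple points are Napsa, Dnase1 and Pzp. Each purple point is the lowest of its panel, at −1.57, −5.40 and −4.84. These genes were chosen for their values in these mice, Dnase1 and Pzp among the steepest falls, so their place is a description.

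Other secreted products of the kidney did not share 1 direction. Of 19 tested, 8 were called lower and 3 higher in CKD, beside 13.3% and 54.6% of all genes tested. Under median-of-ratios 11 were lower and 2 higher, and under quantile normalization 8 were lower and 6 higher. Egf, made by the distal convoluted tubule and thick limb, was at 67.1 ± 42.7 against 340 ± 57.1 FPKM. Kl, the source of soluble klotho, was at 38.5 ± 11.9 against 126 ± 29.2 FPKM, and Klk1, tissue kallikrein, at 638 ± 124 against 1219 ± 138 FPKM (SD, n = 4 each). Spp1, osteopontin, was called higher at 15126 ± 3614 against 521 ± 114 FPKM (SD, n = 4 each). In CKD mice Spp1 was thus above Kap in FPKM, while in control mice it was far below it.

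Across the 12 mice, the genes most like each of the 4 by Pearson correlation of log2(FPKM + 1) were Acy3, Slc22a2 and Lrpap1 for Kap (r = 0.996 to 0.992), and Aadat, Clpb and Mlycd for Napsa (r = 0.984 to 0.982). For Dnase1 they were Akr1c14, Dhrs4 and Trap1 (r = 0.994 to 0.993), of which Trap1 is the gene that overlaps its end. For Pzp they were Tmco3, Cyp7b1 and Slco1a1 (r = 0.990 to 0.986). These values mostly reflect the gap between control and diseased mice, which many genes share, and all points come from the same 12 libraries. After each group mean was taken away, the closest genes were Acy3 for Kap (r = 0.978), Clpb for Napsa (r = 0.904), Mbl1 for Dnase1 (r = 0.983) and Col3a1 for Pzp (r = 0.893). Acy3 deacetylates mercapturic acids in the proximal tubule, and it stayed closest to Kap by both measures.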

How the data were processed

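Whole kidney RNA of 12 mice, 4 per group, was sequenced by the authors as stranded mRNA libraries with single-end reads. The submitters' processing notes name bcl2fastq 2.19, STAR 2.5.2, Cufflinks 2.1.1 and GRCm38, and the annotation release is not given in the sources used here. The authors deposited FPKM per gene and mouse, already scaled to the reads of each mouse. Read depth is unknown and no counting interval is given; the number of mice limits precision. Per the labels each library is 1 mouse. P-values measure the spread between these mice.

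The table, labelled as protein-coding genes, held 22053 rows. Repeated identifiers were reduced to the row with the highest mean. The status column marked 30 values in 17 rows as failed, which were set to missing, and 480 as low-data, which were kept. There were 0 value columns of other samples. Deposited start positions were counted from 0 and were raised by 1.

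Differences were taken on log2(FPKM + 1). All 12 mice entered 1 limma fit (version 3.58.1, R 4.3.3; lmFit, then contrasts.fit, then a trended eBayes), which covered 13141 genes, those reaching 1 FPKM in 4 or more mice. Its two-sided p-values were corrected by Benjamini-Hochberg over these genes and read against 0.05. The study's methods give DESeq2 on read counts, which FPKM do not allow. Single genes in CKD+Fe against CKD were also tested by an exact two-sided permutation test over 70 arrangements, whose smallest p is 0.0286. The fit was tested on simulated data. Fold changes on this scale understate those of low genes. Promoters, motif matches and correlations were computed in Python 3.11.15.

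The 4 genes and the gene lists were chosen with earlier results of these data known. Named genes were the 4, genes of the lists, the 3 genes most like each by either correlation, and their neighbours in rank. Alternatives were a pseudocount of 0.1, no filter, a mean of at least 5 FPKM, median-of-ratios and quantile normalization, equal totals without the 4 genes, only the 2 groups compared, array weights, and each mouse left out. Leaving out the 3 mice that stood apart was added after seeing the data.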

Additional observations from a re-analysis of the deposited data

Results flagged for a closer look

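Dnase1 in CKD+Fe mouse 042702, at 13.2 FPKM, lay far below the other 3 CKD+Fe mice, at 36.4 to 39.8 FPKM. Its gap to the nearest of them was 0.87 of the range of the group, above Dixon's 95% critical value for 4 mice. The other 11 of 12 combinations of gene and group were under that value, and chance alone marks about 1 in 20.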

How the results depend on the processing

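The 4 genes stayed lower in CKD and in CKD+Fe than in control mice under every alternative run, by the sign of differences from which no test is read. Without the filter on low values the adjusted p of Kap by limma rose above the threshold, to 0.12 in CKD and 0.169 in CKD+Fe. The log2 differences of Kap in that setting stayed at −4.84 and −4.32, and no test is read from these p-values either. For these comparisons 11 of 168 values moved by more than the spread between mice, among them Kap at −3.75, Napsa at −2.19 and −1.27, Dnase1 at −6.01 and Pzp at −6.85 and −5.27 in CKD. Counts over all genes depended on the scaling. Genes higher in CKD numbered 7178, and 3571 under median-of-ratios and 3060 under quantile normalization (6571 to 7344 with 1 mouse left out), and genes lower numbered 1746, 4075 and 3362 (1548 to 1874). In CKD+Fe compared with control, 7156 were higher, and 3426, 2602 and, at a mean of at least 5 FPKM, 4746 in turn (6567 to 7508), and 1441, 3849 and 2968 were lower (1237 to 1540). In CKD+Fe compared with CKD, the 1 gene called higher became 0 with a pseudocount of 0.1, no filter or only these groups, 89 with array weights, 0 to 9 with 1 mouse left out and 50 without the 3 mice that stood apart. The 0 called lower became 2 with equal totals without the 4 genes, 66 with array weights, 0 to 4 with 1 mouse left out and 33 without the 3 mice. Dnase1 in CKD+Fe compared with CKD was 0.76, 1.17 with array weights and 1.37 without the 3 mice, and 0.56 to 1.12 with 1 mouse left out. Pzp was −0.14 to 0.24 with 1 mouse left out, −0.14 without CKD+Fe mouse 062910. Kap was 0.05 to 1.05 and Napsa 0.02 to 0.33. Without the 3 mice Kap was 1.34, Napsa 0.40 and Pzp 0.36. Gusb turned to −0.15 (median-of-ratios) and Bace2 to −0.22 (quantile). The cause of these shifts was not tested. No paired analysis was possible because the groups share no replicate numbers.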
